A study of Homo sapiens with 9 samples.

Results

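The immune checkpoint and NK (natural killer) cell ligand genes examined here were CD274, PDCD1LG2, CD276, CD47, PVR, ULBP2, ULBP3, MICA and MICB, taken by symbol from the count table, 9 genes of 57736 rows. RNA was sequenced from SKMEL-147, an established human melanoma line, in 3 groups of 3 libraries. All 9 libraries came from cells of this line with a scrambled or a PHF8 guide. The study treats its PHF8 guide cells as knockouts made with stably carried Cas9 and a GFP-marked lentiviral guide vector, and names dCas9-KRAB, a repressor that does not cut DNA, for an experiment in another line, while the labels of these libraries name only the guide. In sgScr this guide was scrambled, and in sgPHF8-1 and sgPHF8-3 it was directed against PHF8, a JmjC histone demethylase. The cells were transduced pools and not single clones, so targeted and untargeted cells could be present together, and no immune cells or interferon were part of the cultures described. The comparison asked which transcripts changed when PHF8 was targeted.

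Tumor cells present these ligands to lymphocytes and macrophages. CD274 (PD-L1) and PDCD1LG2 (PD-L2) bind PD-1 and restrain T cells, and interferon gamma is the classic inducer of CD274 through JAK and STAT proteins and IRF1. CD276 (B7-H3) is a related B7 family member without an agreed receptor. CD47 binds SIRP alpha on macrophages and holds back phagocytosis, while PVR (CD155) is bound by the activating receptor CD226 and by the inhibitory receptor TIGIT. ULBP2, ULBP3, MICA and MICB are ligands of NKG2D, an activating receptor of NK cells and cytotoxic T cells, and are known to be induced by cell stress.

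The targeted gene was examined first. PHF8, on chromosome X at 53963109 to 54075391 of GRCh37 (minus strand), had normalized counts of 655, 606 and 634 in sgScr, 564, 571 and 565 in sgPHF8-1, and 400, 387 and 434 in sgPHF8-3. Both guide groups lay below sgScr without overlap, and sgPHF8-3 lay below sgPHF8-1. PHF8 mRNA was lower by a log2 fold change of −0.16 (SE 0.0536, edgeR quasi-likelihood test, adjusted p = 0.027) with sgPHF8-1 and of −0.63 (SE 0.0566, adjusted p = 6.36e-09) with sgPHF8-3. The sgPHF8-1 call was lost under DESeq2 (adjusted p = 0.117) and without either of 2 sgScr libraries, A (0.118) or C (0.073), or of 2 sgPHF8-1 libraries, A (0.073) or C (0.057). PHF8 mRNA was higher in sgPHF8-1 than in sgPHF8-3 by 0.48 on the log2 scale (adjusted p = 3.86e-06), and the amount of PHF8 protein was not measured in these libraries. By Western blot the study reported efficient PHF8 knockout in SKMEL-147 with both guides. The mRNA level does not measure how much PHF8 protein was left.

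Libraries held 17366120 to 19838142 counted reads, and 14614 genes passed the filter on low counts, among them all 9 ligand genes. The study's methods speak of 3 biological replicates. Nothing in the labels says how the 3 libraries of a group were kept apart, so p-values describe the spread between these libraries. Library sgPHF8-1 B stood apart most, with 22427 genes detected against 23035 to 23229 in the others, and the called differences of ligand genes that include it are given with and without it. Of the melanocyte lineage markers, SOX10 and MITF were tested, while MLANA and TYR had no counts in any library and the summed level of the 7 markers was 160 to 168 CPM (counts scaled to library size) in sgScr, 140 to 145 in sgPHF8-1 and 151 to 157 in sgPHF8-3. SOX10 fell with both guides (log2 fold changes −0.18 and −0.11, adjusted p = 7.85e-05 and 0.012), and MITF was lower in sgPHF8-1 than in sgPHF8-3 (−0.28, adjusted p = 0.031). All 5 markers of dedifferentiated melanoma (AXL, NGFR, SOX9, EGFR and TNC) were tested, at a summed 3610 to 3720 CPM in sgScr, 3190 to 3350 in sgPHF8-1 and 3550 to 3600 in sgPHF8-3. These genes did not move together: NGFR fell with both guides (log2 fold changes −0.70 and −0.29, adjusted p = 8.85e-15 and 3.08e-07), from a mean of 633 CPM in sgScr to 385 with sgPHF8-1, and SOX9 rose with sgPHF8-1 (0.25, adjusted p = 0.013). The 8 lymphocyte, NK and myeloid markers summed to 0.807 to 1.57 CPM in sgScr, 0.798 to 1.08 in sgPHF8-1 and 1.09 to 2.05 in sgPHF8-3, with CD3E and NKG7 at 0. ITGAM, the one tested, was lower in sgPHF8-1 than in sgPHF8-3 (−1.44, adjusted p = 0.031) and had log2 fold changes against sgScr of −0.33 (adjusted p = 0.677) and 1.11 (adjusted p = 0.051). The 3 fibroblast markers summed to 15.7 to 17.3 CPM in sgScr, 16 to 17.5 in sgPHF8-1 and 13 to 15 in sgPHF8-3, with DCN at 0. Nearly all of this was LUM, which fell with sgPHF8-3 (−0.25, adjusted p = 0.022). Whether these marker differences had a part in the results on the ligands was not tested.

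Few of the ligand genes were called at an adjusted p below 0.05. With sgPHF8-1, PVR rose and CD47 fell, 1 of 9 genes in each direction, where 15.2% of all genes tested were called higher and 15.7% lower. With sgPHF8-3, CD276 and CD47 fell and no ligand gene was called higher, against 9.48% of all genes called higher and 9.78% lower. Counts of 0 to 2 genes per direction do not set the 9 ligand genes apart from these shares. At an unadjusted p below 0.05, 1 ligand gene was higher with sgPHF8-3 (CD274). CD47 was the ligand gene called with both guides. Both comparisons use the same sgScr libraries and are not independent of each other. In bulk RNA, fewer cells that express a gene and less RNA per cell cannot be told apart.

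**Figure D1:**
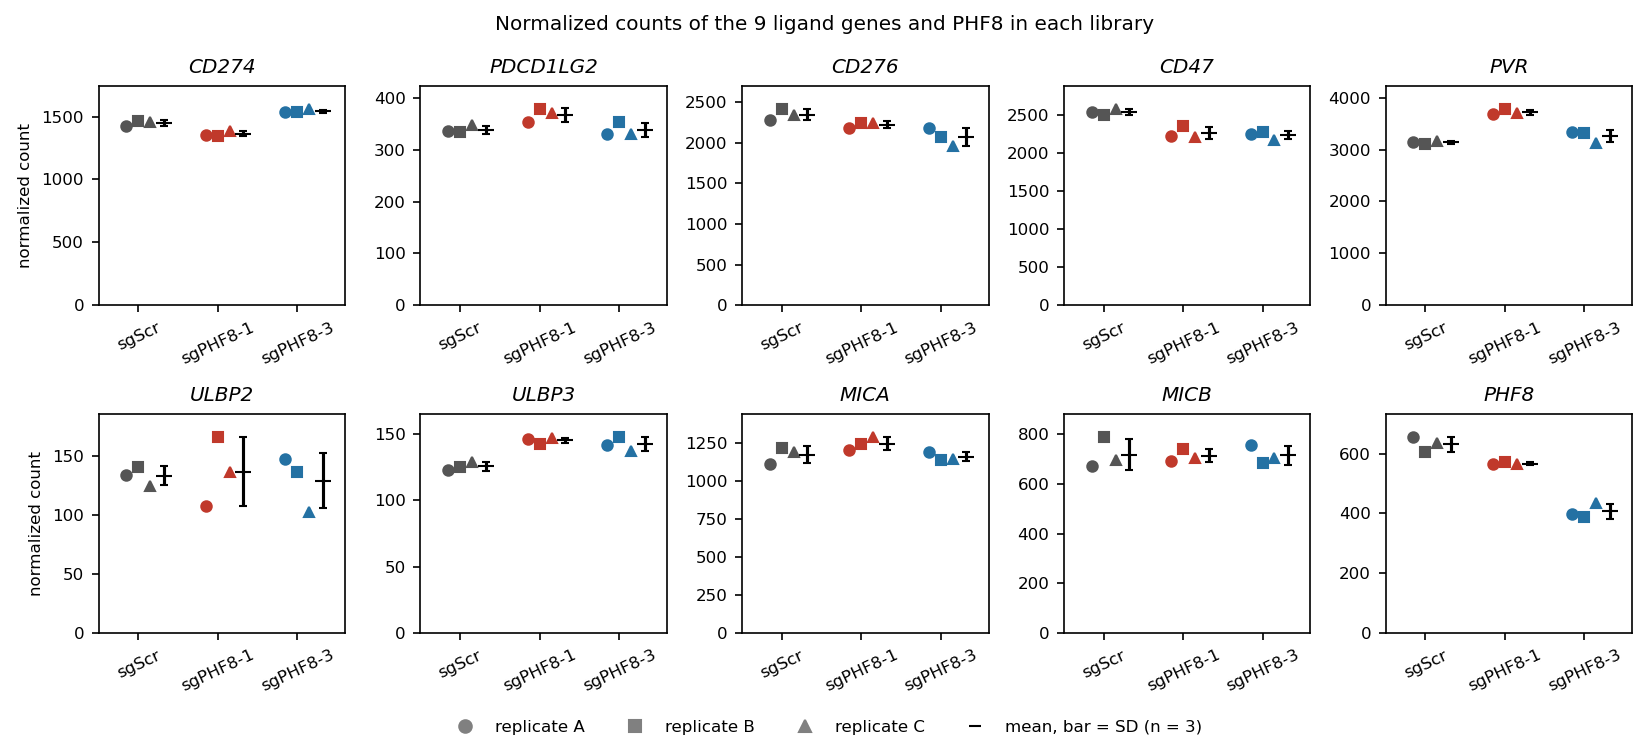
Normalized counts (y axis, from 0) of the 9 ligand genes and PHF8 in each library of sgScr, sgPHF8-1 and sgPHF8-3, with the mean and SD of 3 libraries as black bars. The CD47 points of both guide groups lie under all sgScr points, the PVR points of sgPHF8-1 lie above all others, and the CD274 points of the guides lie on opposite sides of sgScr.

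The PD-1 ligands CD274 and PDCD1LG2 lie 40.0 kb apart on chromosome 9, at 5450503 to 5470566 and 5510531 to 5571282 (GRCh37, both on the plus strand). The RefSeq promoter window of CD274 is shown because the gene's known interferon route ends at motifs of this kind. The 211 bases before its first annotated exon are at chr9:5450292-5450502, plus strand, and capitals mark, in order, a pair of overlapping IRF-type matches (GAAANNGAA, read on the other strand), a GAS match (TTCNNNGAA) and a GC box (GGGCGG).
CD274: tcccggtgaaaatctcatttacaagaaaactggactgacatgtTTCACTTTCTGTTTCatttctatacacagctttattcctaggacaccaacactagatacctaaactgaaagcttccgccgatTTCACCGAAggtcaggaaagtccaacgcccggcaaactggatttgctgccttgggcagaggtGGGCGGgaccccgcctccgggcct

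Among 34788 RefSeq windows of 250 bases before a start site, searched on both strands, 6.6% held a GAS match and 6.9% an IRF-type match. CD274 was the one gene of the 8 ligand genes with a window that held either. A match is a description of the letters and not a binding site.

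CD274 had normalized counts of 1425, 1465 and 1459 in sgScr, 1357, 1347 and 1387 in sgPHF8-1, and 1536, 1535 and 1556 in sgPHF8-3. The 3 groups did not overlap: sgPHF8-1 was lowest and sgPHF8-3 highest. Against sgScr neither difference passed the threshold, with log2 fold changes of −0.09 (SE 0.0351, adjusted p = 0.056) for sgPHF8-1 and 0.09 (SE 0.0345, adjusted p = 0.072) for sgPHF8-3 in the edgeR test. Between the guides CD274 was lower in sgPHF8-1 by a log2 fold change of −0.18 (SE 0.0352, adjusted p = 0.0014), or −0.17 without library sgPHF8-1 B (adjusted p = 0.0036). The libraries of a group differed by less than the counting error for this gene, with a coefficient of variation of 1.28% against 2.62% from counting alone.

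PDCD1LG2 was the less abundant of the PD-1 ligands. Its normalized counts were 335, 333 and 347 in sgScr, 353, 378 and 371 in sgPHF8-1, and 330.2, 354 and 329.8 in sgPHF8-3. The sgPHF8-1 libraries lay above sgScr and overlapped sgPHF8-3 by 1 library, and sgPHF8-3 spanned the sgScr range. The log2 fold change was 0.11 (95% interval −0.02 to 0.25, adjusted p = 0.187) with sgPHF8-1 and −0.0039 (95% interval −0.14 to 0.13, adjusted p = 0.979) with sgPHF8-3, neither passing the test.

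CD276, on chromosome 15 at 73976307 to 74006855 (plus strand), fell with sgPHF8-3. Normalized counts were 2285, 2409 and 2347 in sgScr, 2180, 2249 and 2244 in sgPHF8-1, and 2181, 2077 and 1960 in sgPHF8-3. All libraries of both guides lay below the lowest sgScr library, and the guides met at 2180 and 2181. The log2 fold change with sgPHF8-3 was −0.18 (SE 0.0365, adjusted p = 9.17e-04), a level 0.883 times that of sgScr (95% interval of the change −16.1% to −6.94%). With sgPHF8-1 it was −0.08 (SE 0.0363, adjusted p = 0.109). The guides differed by 0.10 (95% interval 0.02 to 0.18, adjusted p = 0.082), which did not pass the test, while without library sgPHF8-3 A, the highest of its group, the difference was 0.14 (adjusted p = 0.024).

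CD47, the phagocytosis checkpoint ligand, fell with each guide. The gene lies on chromosome 3 at 107761938 to 107810709 (minus strand). Its RefSeq window, chr3:107809879-107810128 on the minus strand, lies inside the annotated gene, holds no annotated exon base and is shown for its repeated GC boxes (GGGCGG or its complement, in capitals).
CD47: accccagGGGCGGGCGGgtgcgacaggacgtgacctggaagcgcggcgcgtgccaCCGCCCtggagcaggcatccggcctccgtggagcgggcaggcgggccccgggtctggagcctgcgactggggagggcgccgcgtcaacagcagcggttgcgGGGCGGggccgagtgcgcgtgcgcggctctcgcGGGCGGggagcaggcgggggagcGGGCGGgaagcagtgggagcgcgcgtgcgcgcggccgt

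This window held 6 GC box matches, the first pair overlapping, and none of the other 7 motifs searched. A GC box was in 42.6% of all windows and in 8 of the 9 windows of the ligand genes, CD276 having 2. The kappaB motif was in windows of ULBP3 and CD276 and in 3463 of all 34788 windows. No ligand gene window held an AP-1 (TGANTCA, 6.6% of all windows), E-box (CACGTG, 6.3%) or CRE (TGACGTCA, 1.6%) match.

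Normalized counts of CD47 were 2538, 2494 and 2572 in sgScr, 2230, 2354 and 2211 in sgPHF8-1, and 2249, 2283 and 2176 in sgPHF8-3. Every library of both guide groups lay below every sgScr library, and the guide groups overlapped each other. The log2 fold change was −0.16 with sgPHF8-1 (SE 0.0332, adjusted p = 4.31e-04, a change of −14.8% to −6.35% in the 95% interval) and −0.18 with sgPHF8-3 (SE 0.0332, adjusted p = 2.86e-04, −15.9% to −7.52%). Without library sgPHF8-1 B, the highest of the guide libraries, the first was −0.19 (adjusted p = 5.53e-05). The difference between the guides was 0.02 (95% interval −0.05 to 0.09, adjusted p = 0.804).

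PVR, on chromosome 19 at 45147098 to 45169430 (plus strand), rose with sgPHF8-1, the largest log2 fold change in size of the 9 ligand genes in that comparison. Normalized counts were 3141, 3114 and 3160 in sgScr, 3682, 3772 and 3705 in sgPHF8-1, and 3344, 3321 and 3133 in sgPHF8-3. The sgPHF8-1 libraries lay above all the others, and library sgPHF8-3 C lay inside the sgScr range. The log2 fold change was 0.24 with sgPHF8-1 (SE 0.0317, adjusted p = 1.16e-06), a level 18.5% higher (95% interval 13.27% to 23.98%). It was also 0.24 without library sgPHF8-1 B (adjusted p = 5.11e-07). With sgPHF8-3 it was 0.06 (SE 0.0320, 95% interval −0.0079 to 0.12, adjusted p = 0.219). The guides differed by 0.19 (SE 0.0318, adjusted p = 2.75e-04), or 0.18 without sgPHF8-1 B. PVR shares 121 exonic bases with CEACAM19 on the same strand, which had 65 counts summed over the 9 libraries. It also shares 2029 exonic bases with ENSG00000279095, a TEC (to be experimentally checked) transcript model on the same strand for which no count was found here, so how reads of these bases were assigned was not tested.

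The 4 NKG2D ligands passed no edgeR test in any of the 3 comparisons, and DESeq2 called none. By edgeR, 15.2% of all genes were called higher and 15.7% lower with sgPHF8-1, and 9.48% and 9.78% with sgPHF8-3. Between the guides these shares were 4.74% and 5.83%. With 4 genes, the absence of a call does not set these ligands apart. At an unadjusted p below 0.05 there were 3 differences, ULBP3 and MICA with sgPHF8-1 and MICA between the guides. ULBP2 and ULBP3 lie 111.8 kb apart on chromosome 6, at 150263150 to 150270371 (plus strand) and 150382189 to 150390257 (minus strand), and MICA and MICB lie 79.6 kb apart on the same chromosome, at 31367561 to 31383092 and 31462658 to 31478901 (both plus strand). MICA and MICB are near copies, as are ULBP2 and RAET1L, so reads could have been split between members of these pairs. The stretches of 30 bases around the heat shock motif of the MICA and MICB windows are shown because the stress induction of these genes is known to run partly through heat shock factor. They are at chr6:31371226-31371255 and chr6:31465772-31465801, plus strand, with the GAANNTTC match in capitals.
MICA: ccagcccactgGAATTTTCtcttccaagcg
MICB: ccaggccgctaGAATTTTCtcttctgaacg

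The same 8 letters were present in both, 135 and 139 bases before the start site, in windows that were 82.7% identical. Both windows lie inside the annotated genes, and 150 of 250 bases of the MICA window and 59 of the MICB window are annotated exon. Such a match was in 5.8% of all windows and in no other ligand gene window.

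MICA had normalized counts of 1109.5, 1218 and 1190 in sgScr, 1205, 1244 and 1287 in sgPHF8-1, and 1193, 1139 and 1144 in sgPHF8-3. The sgPHF8-1 libraries overlapped sgScr and lay above sgPHF8-3. The log2 fold change was 0.09 (adjusted p = 0.122) with sgPHF8-1 and −0.02 (adjusted p = 0.829) with sgPHF8-3.

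MICB varied more between libraries of a group than either guide group differed from sgScr. Its normalized counts were 670, 787 and 695 in sgScr, 694, 742 and 703 in sgPHF8-1, and 756, 684 and 703 in sgPHF8-3. All groups overlapped, with log2 fold changes of −0.01 (95% interval −0.13 to 0.11, adjusted p = 0.916) with sgPHF8-1 and −0.0062 (95% interval −0.12 to 0.11, adjusted p = 0.959) with sgPHF8-3.

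ULBP2 had the widest spread of the 9 genes. Normalized counts were 134, 140.5 and 124 in sgScr, 108, 166 and 136 in sgPHF8-1, and 147, 136 and 103 in sgPHF8-3. Its within-group coefficient of variation was 16.5%, against 8.66% from counting, and the 95% interval of its log2 fold change ran from −0.24 to 0.30 with sgPHF8-1 and from −0.32 to 0.23 with sgPHF8-3. Changes inside these limits are compatible with these data, and the limits are not a threshold of detection.

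ULBP3 had the lowest level per length. Normalized counts were 123, 125 and 129 in sgScr, 146, 143 and 147 in sgPHF8-1, and 142, 148 and 137 in sgPHF8-3. Every library of both guides lay above every sgScr library, yet the log2 fold changes of 0.21 (SE 0.0966, adjusted p = 0.106) and 0.18 (SE 0.0967, adjusted p = 0.206) did not pass the test. The libraries of a group differed by 2.68% where counting alone gives 8.51%, a spread below the counting error.

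**Figure D2:**
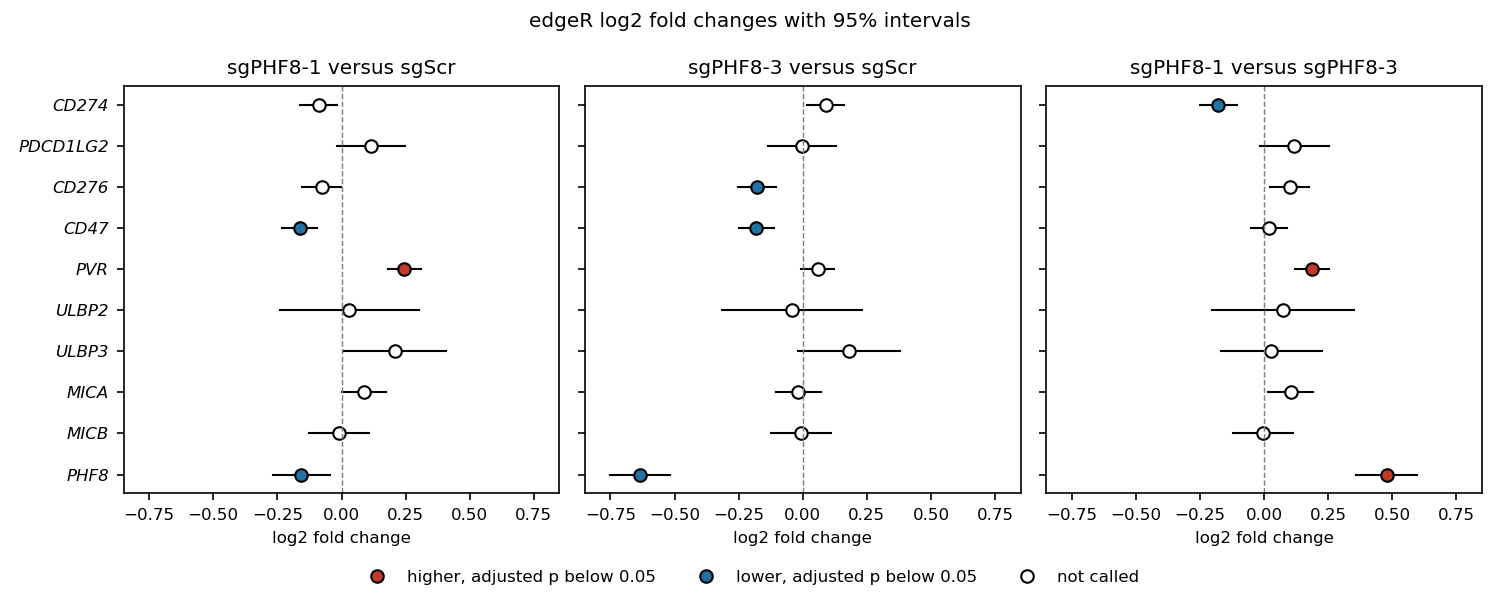
Log2 fold change (x axis) of each ligand gene and PHF8 in the 3 comparisons, with 95% intervals from the edgeR fit, filled where the adjusted p was below 0.05 (red higher, blue lower). CD47 is filled in both comparisons with sgScr, PVR with sgPHF8-1 and CD276 with sgPHF8-3, and between the guides CD274, PVR and PHF8 are filled.

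Between the guides, CD274 was lower and PVR higher in sgPHF8-1 than in sgPHF8-3, 1 of 9 ligand genes in each direction, where 5.83% of all genes were called lower and 4.74% higher. Without overlap between groups were 6 of 9 ligand genes for sgPHF8-1 against sgScr (42.2% of all genes), 4 of 9 for sgPHF8-3 against sgScr (36.5%) and 3 of 9 between the guides (25.3%). Changes of the ligand genes were small. None was called under a rule of an unadjusted p below 0.05 with a log2 fold change beyond 0.25 in size, which called 15.1% of all genes for sgPHF8-1, 9.53% for sgPHF8-3 and 5.71% between the guides, and PVR with sgPHF8-1 missed it at 0.2449. With 9 genes, the absence of a call does not set them apart from these shares. The median size of the log2 fold change was 0.09 over the ligand genes and 0.13 over all genes for sgPHF8-1, 0.06 and 0.10 for sgPHF8-3, and 0.10 and 0.09 between the guides.

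Levels were compared per length as RPKM (reads per kilobase of all exons of the gene, scaled to library size). In sgScr, CD276 was highest at 23.1 ± 0.627 (SD, n = 3) RPKM, followed by CD274 at 19.05 ± 0.300. CD47 at 16.6 ± 0.258, MICA at 16.4 ± 0.803 and PVR at 16.2 ± 0.122 RPKM did not differ beyond their spread, and MICB was at 13.8 ± 1.20. PDCD1LG2 at 7.52 ± 0.174, ULBP2 at 5.37 ± 0.325 and ULBP3 at 2.18 ± 0.0582 RPKM were lowest and did not overlap one another. The order among the higher genes depended on the length used: with the length of the canonical transcript, chosen after seeing the data, MICA was at 46.2, CD276 at 38.4, PVR at 29.2, CD47 at 25.8, CD274 at 21.5 and MICB at 16.0 RPKM, while the 3 lowest kept their values and order.

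**Figure D3:**
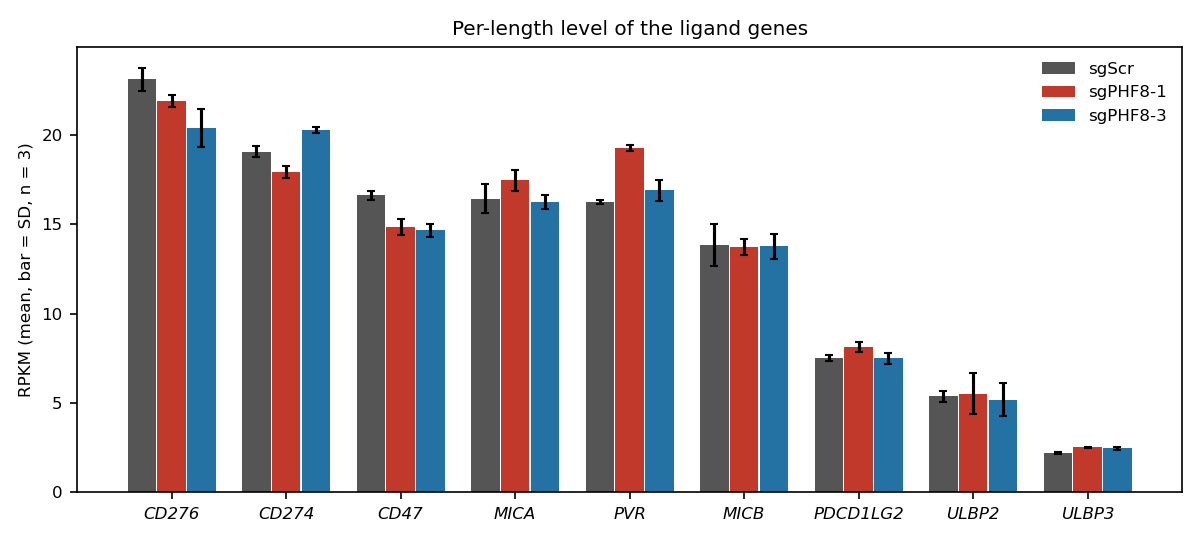
RPKM (y axis, from 0) of the 9 ligand genes, as bars of the group mean with the SD of 3 libraries, for sgScr, sgPHF8-1 and sgPHF8-3. CD276 is highest in sgScr at 23.1 and ULBP3 lowest at 2.18.

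Genes around the ligands were followed in lists set out with the ligand genes. Of 22 other checkpoint ligands, 8 were tested, and edgeR called no gene of this list higher against sgScr, nor was any higher at an unadjusted p below 0.05. It called 3 lower with sgPHF8-1 and 2 lower with sgPHF8-3. The shares of all genes called higher and lower were 15.2% and 15.7% with sgPHF8-1 and 9.48% and 9.78% with sgPHF8-3. NECTIN2 (CD112), which shares receptors with PVR, fell with both guides, at log2 fold changes of −0.21 (adjusted p = 2.88e-04) with sgPHF8-1 and −0.14 (adjusted p = 0.019) with sgPHF8-3. NECTIN3, a cell adhesion nectin, and NT5E (CD73), which makes adenosine, were called lower with sgPHF8-1, at −0.21 and −0.18. Their log2 fold changes with sgPHF8-3 were −0.06 (adjusted p = 0.230) and −0.0072 (adjusted p = 0.906), and both differed between the guides (adjusted p = 0.0078 and 3.40e-04). NECTIN1 was called lower with sgPHF8-3 (−0.34, adjusted p = 0.036, 84 to 129 counts) and was at −0.27 with sgPHF8-1 (adjusted p = 0.078). The median log2 fold change of the 8 genes was −0.20 and −0.16, where that of all genes was 3.00e-04 and −8.00e-04. PVR and NECTIN2 had opposite directions with sgPHF8-1.

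Of 15 other NK cell ligands, 9 were tested, with 3 called higher and 3 lower for sgPHF8-1 and 2 in each direction for sgPHF8-3, where 15.2% of all genes were called higher and 15.7% lower with sgPHF8-1, and 9.48% and 9.78% with sgPHF8-3. The death receptor FAS rose with both guides, by log2 fold changes of 0.47 (adjusted p = 6.88e-04) and 0.31 (adjusted p = 0.034). CD58, the ligand of the adhesion receptor CD2, fell with both, at −0.44 (adjusted p = 1.37e-06) and −0.27 (adjusted p = 9.53e-04). RAET1E, an NKG2D ligand, was called higher with sgPHF8-1 (0.63, adjusted p = 0.011, 31 to 57 counts), as was ICAM1 (0.73, adjusted p = 0.025, 14 to 27 counts). With sgPHF8-3 these were at 0.34 (adjusted p = 0.232) and 0.15 (adjusted p = 0.766), and neither differed between the guides by the test (adjusted p = 0.347 and 0.135). The rest of the calls, named after their values were seen, were HLA-E, the ligand of the inhibitory receptor NKG2A (−0.31 and −0.24, adjusted p = 1.58e-07 and 2.00e-05), BAG6 (−0.12 with sgPHF8-1, adjusted p = 0.0099, and −0.06 with sgPHF8-3, adjusted p = 0.215) and NCR3LG1 (0.22 with sgPHF8-3, adjusted p = 0.0083, and 0.15 with sgPHF8-1, adjusted p = 0.058). HLA-E resembles other HLA genes, so its reads could have been split. The NKG2D ligand ULBP1 had 1 to 5 counts a library and RAET1L 0 to 5, and neither was tested.

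**Figure D4:**
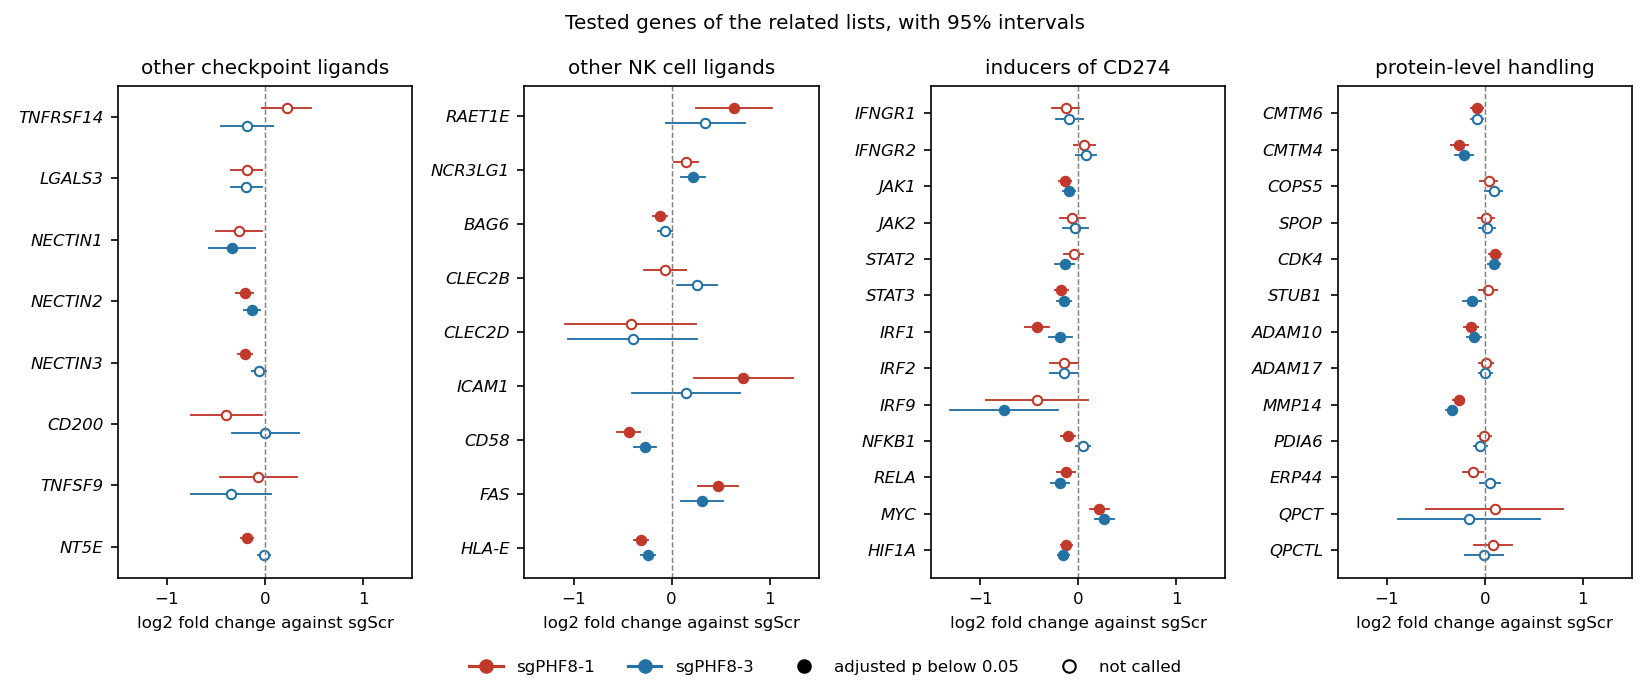
Log2 fold change against sgScr (x axis, with 95% intervals) of the tested genes reported here from 4 lists around the ligands, for sgPHF8-1 (red) and sgPHF8-3 (blue), filled where the adjusted p was below 0.05. NECTIN2, CD58, HLA-E, IRF1 and MMP14 are filled on the lower side with both guides, and FAS and MYC on the higher side.

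All 14 genes of the list of CD274 inducers were tested, though not each is reported by name. With sgPHF8-1, 1 rose and 6 fell, and with sgPHF8-3, 1 rose and 7 fell, beside 15.2% of all genes called higher and 15.7% lower with sgPHF8-1 and 9.48% and 9.78% with sgPHF8-3. IRF1, the interferon-induced activator of CD274, had log2 fold changes of −0.42 (SE 0.0595, adjusted p = 4.53e-06) and −0.18 (SE 0.0576, adjusted p = 0.027), and fell further with sgPHF8-1 (difference −0.24, adjusted p = 0.012). MYC rose with both guides, at 0.21 (adjusted p = 0.0011) and 0.27 (adjusted p = 1.92e-04). RELA, a subunit of NF-kappaB, fell with both, at −0.12 and −0.19, and IRF9 was called lower with sgPHF8-3 (−0.76, adjusted p = 0.047, 11 to 30 counts) and at −0.42 with sgPHF8-1 (adjusted p = 0.230). The median log2 fold change was −0.12 and −0.11.

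Of 14 genes that act on these ligands as proteins, 13 were tested. With each guide, 1 rose and 4 fell, against the same shares of all genes, 15.2% higher and 15.7% lower for sgPHF8-1 and 9.48% and 9.78% for sgPHF8-3. MMP14, a membrane protease known to shed MICA, fell at −0.27 (adjusted p = 4.04e-08) and −0.34 (adjusted p = 2.00e-09). CMTM4, which protects PD-L1 from degradation, fell at −0.26 (adjusted p = 4.40e-05) and −0.21 (adjusted p = 9.45e-04), and the sheddase ADAM10 at −0.14 (adjusted p = 0.0026) and −0.11 (adjusted p = 0.023). STUB1, a ubiquitin ligase, was called lower with sgPHF8-3 (−0.13, adjusted p = 0.044). With sgPHF8-1 its log2 fold change was 0.03 (adjusted p = 0.667), and the guides differed by 0.16 (adjusted p = 0.023). Named after their values were seen, the others were CDK4, the one gene that rose (0.11 and 0.10), and CMTM6, called lower with sgPHF8-1 (−0.08, adjusted p = 0.045) and at −0.08 with sgPHF8-3 (adjusted p = 0.052). The median was 0.01 and −0.05.

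All 10 stress-response genes linked to NKG2D ligands were tested, though not each is reported by name. With sgPHF8-1, 0 rose and 3 fell, and with sgPHF8-3, 0 rose and 1 fell. The shares of all genes called higher and lower were 15.2% and 15.7% with sgPHF8-1 and 9.48% and 9.78% with sgPHF8-3. Between the guides 4 were lower in sgPHF8-1, where 5.83% of all genes were called lower. HSPA1B (−0.14, adjusted p = 0.011), a near copy of HSPA1A, and E2F1 (−0.11, adjusted p = 0.023) were among those called lower with sgPHF8-1. With sgPHF8-3 they were at −0.07 (adjusted p = 0.222) and 0.02 (adjusted p = 0.791), and E2F1 differed between the guides (adjusted p = 0.025). From RNA-seq of this line the study reported that PHF8 does not regulate E2F1 transcription, with neither guide significant. The E2F1 call made here by edgeR differs from that report, and why was not tested. A DESeq2 value for E2F1 is not given here.

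Of 8 genes beside CD274 and PDCD1LG2 on chromosome 9, JAK2, PLGRKT, RIC1 and ERMP1 were tested, and edgeR called none of the 4 in any comparison. With 4 genes and the shares of all genes called (15.2% higher and 15.7% lower, 9.48% and 9.78%, and 4.74% and 5.83% between the guides), this does not set them apart. In edgeR, over the 3 comparisons, 1 unadjusted p was below 0.05, that of PLGRKT with sgPHF8-3 (log2 fold change 0.17, adjusted p = 0.077). Their median was −0.02 and −0.0064.

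Receptors for the ligands were near the floor. PDCD1, the gene of PD-1, had no count in any library, and KLRK1 (NKG2D) and TIGIT had at most 1. Of 10 receptors, 3 were tested, and CD96 was the one called, lower with both guides at −1.23 (SE 0.2509, adjusted p = 4.18e-04) and −1.01 (SE 0.2413, adjusted p = 0.0037) on 11 to 33 counts a library, where 15.7% and 9.78% of all genes were called lower. No gene of these lists was called in opposite directions by the guides.

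The genes most like each ligand gene across the 9 libraries, among 12037 compared, are given as Pearson correlations of log2 CPM. They were DANCR (0.992) and CEBPB (0.990) for PVR, TIMP3 (0.985) and CPNE3 (0.982) for CD47, DHCR7 (0.987) and ACOT7 (0.973) for CD276, KIAA0586 (0.978) and ZNF24 (0.977) for CD274, and LY6K (0.991) and SNHG20 (0.980) for ULBP3. For PDCD1LG2 they were ZNHIT1 (0.952) and TMEM41A (0.934), for ULBP2 MT1M (0.934), for MICA NRROS (0.922) and MFSD10 (0.920), and for MICB MED26 (0.921) and ARSI (0.909). The points share 3 groups and the same libraries, and no p is given.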

How the data were processed

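SKMEL-147 RNA was depleted of ribosomal RNA and sequenced as paired ends in 3 libraries each of sgScr, sgPHF8-1 and sgPHF8-3. Per the labels and the study's methods, the authors aligned reads to hg19 with STAR and named Picard, HTSeq and DESeq2, and the deposited tables hold raw gene counts and a normalized signal, which is the raw count divided by 1 size factor per library. The strand setting of the counting is not given in the sources used here. Total counts per library ran from 17366120 to 19838142. From the raw counts, edgeR 4.0.16 (quasi-likelihood test, TMM, filterByExpr, 1 fit of all 9 libraries by group, 6 residual degrees of freedom) gave log2 fold changes, SEs and Benjamini-Hochberg adjusted p-values over 14614 genes, with a threshold of 0.05. The study fitted DESeq2; edgeR was used as the main test here, and DESeq2 1.42.0, limma 3.58.1, other scalings and filters, a replicate block and leaving out each library were alternatives. The scripts were tested on simulated counts.

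Symbols were joined to Ensembl identifiers with a name table (55501 of 57736 matched), and CD24 was not analysed here. RPKM used GENCODE exon lengths (GRCh37), and promoter windows of 250 bases came from RefSeq and were printed where they matched GRCh37 exactly. No window of PDCD1LG2 was used here. All ligand genes were named, and of each list at most the 4 called genes with the largest change, together with any called in opposite directions by the guides, unless stated. The 2 genes most correlated with each ligand gene were named. A few genes that these rules name are not reported here. The ligand genes, lists and motifs were chosen with earlier results of these data known.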

Additional observations from a re-analysis of the deposited data

Results flagged for a closer look

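CD274 and PVR differed between the guides. The log2 difference of sgPHF8-1 minus sgPHF8-3 was −0.1776 for CD274 (edgeR, adjusted p = 0.0014) and 0.1872 for PVR (edgeR, adjusted p = 2.75e-04). PHF8, the targeted gene, differed as well, by 0.4779 (edgeR, adjusted p = 3.86e-06), with more PHF8 mRNA left in sgPHF8-1. PHF8 protein was not measured in these libraries. Each of the 3 differences was tested directly and kept its call and direction under all 13 alternatives of scaling, filter, test, block or libraries.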

How the results depend on the processing

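Every ligand gene called kept its direction and its call under the 13 alternatives of scaling, filter, test, block or libraries in each comparison. For CD47 the log2 fold change ran from −0.19 to −0.15 with sgPHF8-1 and from −0.20 to −0.16 with sgPHF8-3, for PVR with sgPHF8-1 from 0.23 to 0.25, and for CD276 with sgPHF8-3 from −0.22 to −0.14. With library totals and no TMM factor, 4 ligand genes in place of 2 were called for sgPHF8-1 against sgScr, CD274 (adjusted p = 0.021) and CD276 (adjusted p = 0.038) joining. With the rule of an unadjusted p below 0.05 and a log2 fold change beyond 0.25, 0 of 9 were called in each comparison, by the size limit that rule holds. Leaving out each library gave 2 called genes against sgScr and 2 to 3 between the guides. Same-lettered libraries correlated at −0.0829 to 0.0527 after removal of group means, so the letters did not pair them, and the fit with a replicate block called 2 ligand genes in each comparison. Over all genes, edgeR called 4513, 2814 and 1544 and DESeq2 3118, 1686 and 889 for sgPHF8-1 against sgScr, sgPHF8-3 against sgScr and the guides, and the size rule 2205, 1393 and 835. Without library sgPHF8-3 B the guides differed in 923 genes and without C in 983, and without sgScr B sgPHF8-3 differed from sgScr in 1877. Library totals moved the share of higher calls between the guides from 44.8% to 34.1%. The cause of these differences was not tested. ULBP2 and ULBP3, with mean counts of 133.2 and 138.1 a library, limit what could be seen at this depth.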
